A study of Mus musculus with 5 samples.

Results

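Autotaxin, the receptors for its product and the phosphatases that destroy that product were followed in mouse mammary epithelial cells carrying an sgRNA against Mef2d. The set was named as 8 genes, Enpp2, Lpar1, Lpar2, Lpar3, Lpar6, Plpp1, Plpp2 and Plpp3. Of these, 7 were among the 12934 genes listed in the count table, all 7 passed the expression filter that left 12483 genes to test, and Lpar3 was not among the listed genes and was not analysed here. Enpp2 was chosen because it fell in this very contrast, so its values are given as a description without a test. The receptors and phosphatases were chosen by family and by being listed.

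EpH4 is a spontaneously immortalized, non-transformed mammary epithelial line from a BALB/c mouse. Both groups expressed Cas9 from a lentivirus, went through antibiotic selection for Cas9 and for the sgRNA, and grew in DMEM with fetal bovine serum. The sgControl group (3 libraries) carried a control sgRNA, and the sgMef2d group (2 libraries) carried an sgRNA against Mef2d, the gene of a MADS-box transcription factor. The study used a pair of sgRNAs against Mef2d, and the labels do not say which of them each sgMef2d library carried. Nothing in the labels says that libraries of a group came from separate cultures, so the p-values measure the spread between these libraries, which may be technical.

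Autotaxin, the product of Enpp2, is a secreted lysophospholipase D that cleaves lysophosphatidylcholine outside the cell into lysophosphatidic acid (LPA) and choline. LPA binds G protein-coupled receptors on the cell surface, which signal through Gi, Gq and G12/13 to calcium, ERK and AKT. Lipid phosphate phosphatases, encoded by the Plpp genes, have their active site facing the outside of the cell or the lumen of membranes, and remove the phosphate of LPA. In the mammary gland, adipocytes of the fat pad are a known source of autotaxin, and serum itself carries autotaxin and LPA, which RNA counts of the cells do not measure.

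Libraries held between 13601145 and 20498563 counts, so that 3 counts corresponded to between 0.146 and 0.220 CPM (counts per 1000000 counts of the library). The libraries of sgControl replicates 2 and 3 differed about as much as the sgMef2d libraries did (chi-square per degree of freedom of 1.98 and 2.02). On the same measure sgControl replicate 1 differed from the other controls by 10.3 and 13.3, as far as the groups from each other. It stood apart, and calls that change without it are given beside the members and lists they touch. Mef2d RNA stood at 64.3, 76.9 and 71.5 CPM in the sgControl libraries and at 64.2 and 65.8 CPM in the sgMef2d libraries. The log2 fold change of -0.12 (SE 0.080) did not pass the threshold (adjusted p = 0.400, quasi-likelihood test of edgeR, Benjamini-Hochberg). Without sgControl replicate 1 it was -0.19 and passed, with an adjusted p of 0.00550. Counts per gene do not show small insertions or deletions or protein, so they leave the knockout itself unchecked. The paper reports that MEF2D protein was absent from its knockout cells by immunoblot.

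Across the genome 992 genes (7.95%) passed an adjusted p of 0.05 in the sgMef2d cells, 458 of them higher (3.67%) and 534 lower (4.28%). Enpp2 was lower by 2.84-fold. Of the other 6 listed members only Plpp3 passed the test, and it was higher. None of the receptors passed it. Both sgMef2d libraries lay outside the range of the sgControl libraries for 4 of these 6 genes (66.7%), namely Lpar1, Lpar2 and Plpp3 above it and Plpp1 below it, where 41.1% of all genes tested did so. The median log2 fold change of the 6 was 0.06, against 0.0031 over all genes tested.

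**Figure D1:**
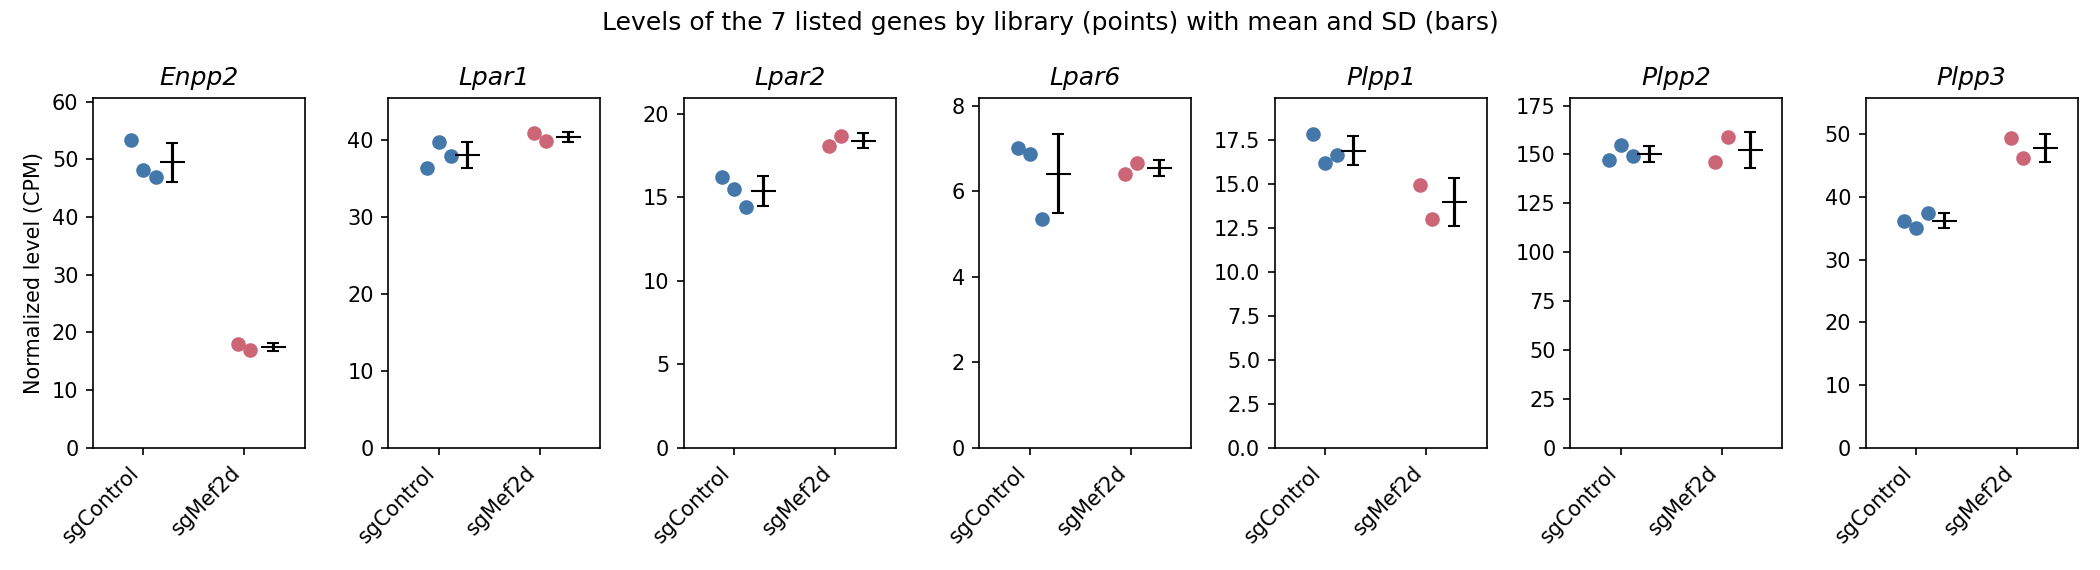
Level of each listed member in CPM (linear axis from 0) in the 3 sgControl and 2 sgMef2d libraries, where points are libraries and bars beside them are the mean and SD. Enpp2 falls from between 47.0 and 53.3 CPM to 17.0 and 17.9 CPM, Plpp3 lies higher in both sgMef2d libraries, and the groups overlap for Lpar6 and Plpp2.

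Enpp2 (ENSMUSG00000022425.16) lies on the minus strand at chr15:54838901-54952892 of GRCm38. It held 1094, 679 and 641 counts in the sgControl libraries and 304 and 253 counts in the sgMef2d libraries. Scaled to library size, these were 53.3, 48.1 and 47.0 CPM against 17.9 and 17.0 CPM. Both sgMef2d libraries lay below every control. The mean was 49.5 ± 3.39 CPM in sgControl (SD, n = 3). It was 17.5 ± 0.604 CPM in sgMef2d (SD, n = 2), which the fit put at a log2 fold change of -1.50 (SE 0.089). In bulk RNA, fewer cells expressing a gene and less RNA per cell cannot be told apart.

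The labelled cell type was checked against markers. Of 10 epithelial markers 9 were listed, with Epcam at 254 and 277 CPM and Cdh1 at 253 and 277 CPM in the sgControl and sgMef2d means. The summed level of the listed epithelial markers ranged from 2993 to 3117 CPM in sgControl and from 3414 to 3564 CPM in sgMef2d. That gap came from Krt14 and is no rise of the markers as a group. Krt14 had means of 439 CPM in sgControl and 902 CPM in sgMef2d, while Krt8 stood at 972 CPM in both and Krt18 at 705 and 591 CPM. Of these markers the basal keratins Krt5 and Krt14 and the claudin Cldn4 rose and the luminal keratin Krt18 fell. Krt5 and Krt14 kept their calls with each library left out. Cldn4 lost its call under the replicate block and when any library other than sgControl replicate 1 was left out, and Krt18 without sgControl replicate 2 or either sgMef2d library, while Epcam passed without sgControl replicate 1 (adjusted p = 0.00661, edgeR). Since fat cells are a source of autotaxin, adipocyte markers are given beside Enpp2. Only 3 of 8 were listed, and the defining genes Adipoq, Plin1, Cidec, Lep and Cfd were not. The summed level of the listed 3 ranged from 32.0 to 36.0 CPM in sgControl and from 9.49 to 12.5 CPM in sgMef2d, so it moved in the same direction as Enpp2. Most of that sum was Lpl, a secreted lipase that other cells also make, which fell by 1.81 on the log2 scale (adjusted p = 4.06e-05). Fabp4, a fatty acid carrier, fell from 3.07 to 1.33 CPM (adjusted p = 0.0231), and Pparg, at 1.91 and 1.37 CPM, did not pass (adjusted p = 0.357, all by edgeR's quasi-likelihood test). Fabp4 lost its call when either sgMef2d library was left out. Of 9 fibroblast markers 6 were listed, and their sums overlapped between groups, at 643 to 767 CPM in sgControl and 608 to 649 CPM in sgMef2d, while Col3a1 and Dcn rose and Col1a2 fell. Dcn lost its call without sgControl replicate 2 or either sgMef2d library. Without sgControl replicate 1, Col1a1, Pdgfra and Pdgfrb passed too, which made 3 higher and 3 lower, in a fit that called 29.4% of all genes. With all libraries, the marker calls stand beside 3.67% of all genes called higher and 4.28% called lower. Col1a1 also passed under the replicate block and without sgControl replicate 3. No endothelial marker of 5 was listed, and 2 of 6 leukocyte markers summed to at most 4.11 CPM in any library. The part of these markers in the change of Enpp2 was not tested.

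Of the receptors, Lpar1, the most widely expressed LPA receptor (ENSMUSG00000038668.14, chr4:58435255-58553898, minus strand), stood at 36.4, 39.8 and 37.9 CPM in sgControl and at 40.9 and 39.9 CPM in sgMef2d. The sgMef2d libraries lay barely above the highest control. The log2 fold change of 0.09 (SE 0.074, 95% interval -0.07 to 0.25) did not pass the test, with an adjusted p of 0.514 (edgeR, n = 3 and 2).

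Lpar2 (ENSMUSG00000031861.16, chr8:69822429-69831102, plus strand) encodes a receptor whose tail binds PDZ proteins and which is often raised in carcinoma cells. It stood at 16.2, 15.5 and 14.4 CPM in sgControl and at 18.1 and 18.7 CPM in sgMef2d. Both sgMef2d libraries lay above every control, by more than the spread within the groups. Its log2 fold change was 0.25 (SE 0.098, 95% interval 0.04 to 0.47), and the adjusted p of 0.146 by edgeR's quasi-likelihood test did not reach the threshold. Without sgControl replicate 1 it passed, at a log2 fold change of 0.30 and an adjusted p of 0.0335. Over all alternatives the adjusted p ran from 0.0335 to 0.567.

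Lpar6 (ENSMUSG00000033446.7, chr14:73237895-73243294, plus strand) encodes a receptor of another family than Lpar1 and Lpar2, related to purinergic receptors and known for its role in hair growth. It stood at 7.02, 6.88 and 5.35 CPM in sgControl and at 6.41 and 6.67 CPM in sgMef2d, inside the control range. The log2 fold change was 0.01 (SE 0.16, 95% interval -0.34 to 0.36, adjusted p = 0.976 by edgeR), and its sign changed with the library left out. The gene overlaps Rb1 on the opposite strand, and 7.56% of its exon bases are shared with exons of Rb1, whose log2 fold change was 0.05. Lpar4, a receptor of the same branch that was not named in the set, was listed at a low level, with 2.33 ± 0.457 CPM (SD, n = 3) in sgControl and 1.68 ± 0.382 CPM (SD, n = 2) in sgMef2d and an adjusted p of 0.373 by edgeR.

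Of the phosphatases, Plpp3 was the member that rose. Plpp3 (ENSMUSG00000028517.8, chr4:105157347-105232764, plus strand) encodes LPP3, the phosphatase that limits LPA signalling in vessel walls and heart and that is needed for embryonic development. It stood at 36.2, 35.0 and 37.4 CPM in sgControl and at 49.3 and 46.2 CPM in sgMef2d. Both sgMef2d libraries lay well above the 3 controls, which were close together. In the fit Plpp3 rose by 0.40 on the log2 scale (SE 0.073, 95% interval 0.24 to 0.56), a ratio of 1.32, with an adjusted p of 0.00650 by edgeR's quasi-likelihood test. The call rested on having both sgMef2d libraries. Without sgMef2d replicate 1 the log2 fold change was 0.35 (adjusted p = 0.143), and without sgMef2d replicate 2 it was 0.44 (adjusted p = 0.0649).

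Plpp1 (ENSMUSG00000021759.14, chr13:112800792-112867894, plus strand) encodes LPP1, a widely expressed phosphatase of the plasma membrane. It stood at 17.8, 16.2 and 16.6 CPM in sgControl and at 14.9 and 13.0 CPM in sgMef2d. Both sgMef2d libraries were below every control, opposite to Plpp3. The fitted log2 fold change of -0.28 (SE 0.11, 95% interval -0.51 to -0.04) did not pass, with an adjusted p of 0.147 by edgeR and between 0.136 and 0.666 over the alternatives. Exons of Mtrex on the opposite strand cover 25.8% of the exon bases of Plpp1. Mtrex itself had a log2 fold change of -0.05. The library kit marks strand, and whether the counting used it is not given in the sources used here.

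Plpp2 (ENSMUSG00000052151.12, chr10:79526430-79533796, minus strand) encodes LPP2, a phosphatase found on both the plasma membrane and inner membranes. It stood at 147, 155 and 149 CPM in sgControl and at 146 and 159 CPM in sgMef2d, so that the sgMef2d libraries enclosed the controls. Its log2 fold change was 0.02 (SE 0.062, 95% interval -0.12 to 0.16, adjusted p = 0.888 by edgeR). The intervals of Plpp2 and Plpp3 do not overlap, although the difference between the genes was not tested.

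**Figure D2:**
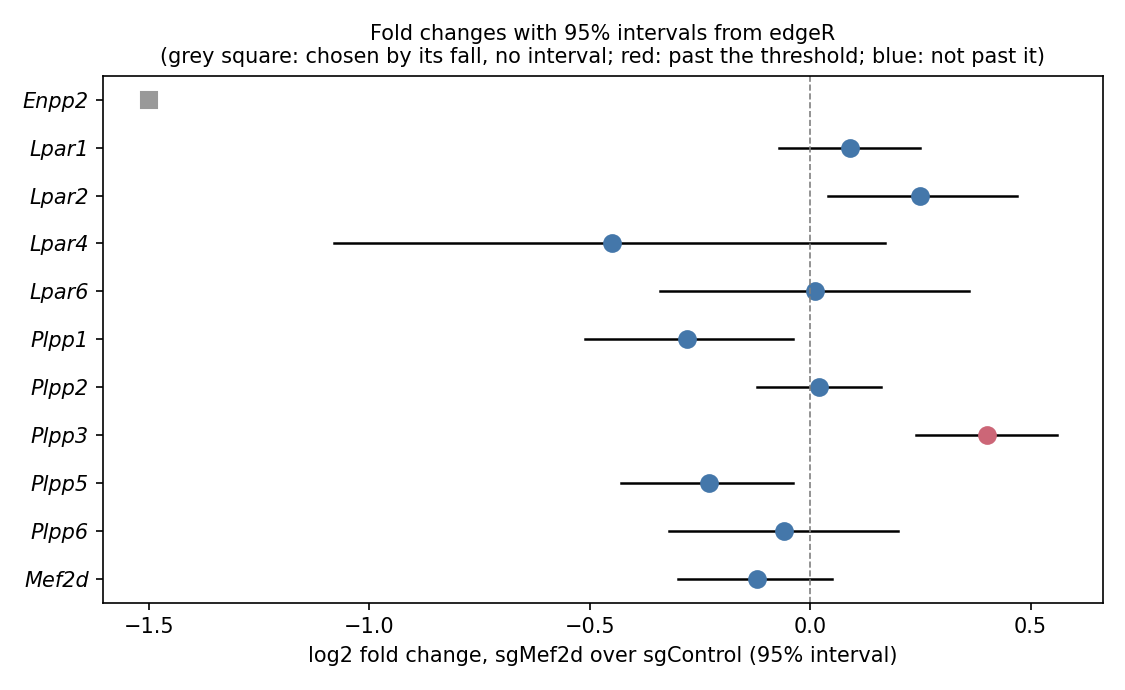
Log2 fold change of sgMef2d against sgControl for each listed member, with points for the fitted value and, except for Enpp2, bars for the 95% interval, which is not adjusted for the number of genes. The relatives Lpar4, Plpp5 and Plpp6 and the targeted Mef2d are drawn too. Enpp2 (grey, selected by its fall) sits at -1.50, the other members lie between -0.28 and 0.40, and of the genes tested Plpp3 alone (red) passed the threshold.

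The sequences before the start sites of a called and an uncalled member are shown because MEF2 proteins bind an A/T-rich motif of 10 bases. RefSeq promoter windows on GRCm38.p6, from 250 bases before to 50 bases after the start, were matched for 6 of the 8 members in 8 windows, and Enpp2 and Plpp1 had no entry. None of the 8 windows held the MEF2 motif on either strand, and 1047 of 32851 windows over all genes (3.19%) did. With 1 mismatch allowed, 3 of the 8 windows had a match (Plpp3, Lpar6 and 1 start of Lpar1), as did 26.9% of all windows. In the lines here, written 5′ to 3′ on the plus strand, capitals mark that closest match. It starts 14 bases before the start of Plpp3 (chr4:105157097-105157346) and 154 bases before the start of Lpar6 (chr14:73237641-73237890).
Plpp3: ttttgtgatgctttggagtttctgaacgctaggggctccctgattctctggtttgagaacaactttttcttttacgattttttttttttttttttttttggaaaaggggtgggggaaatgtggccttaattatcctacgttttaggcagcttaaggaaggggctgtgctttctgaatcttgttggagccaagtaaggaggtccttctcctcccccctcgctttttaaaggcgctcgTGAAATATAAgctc
Lpar6: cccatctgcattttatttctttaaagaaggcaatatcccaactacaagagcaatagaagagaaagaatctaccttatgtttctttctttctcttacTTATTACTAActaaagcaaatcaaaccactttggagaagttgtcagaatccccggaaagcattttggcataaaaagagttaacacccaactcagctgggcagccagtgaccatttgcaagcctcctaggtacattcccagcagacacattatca
Plpp3 was called and Lpar6 was not, although both have such a match. A match of letters is a description and not a binding site, and these windows say nothing of more distant elements.

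Levels of different genes were compared as CPM per kilobase of merged exons. In sgControl, the order was Plpp2 (90.9 ± 2.75, SD, n = 3), Plpp3 (11.5 ± 0.383), Plpp1 (9.66 ± 0.478), Lpar1 (8.86 ± 0.398), Enpp2 (8.56 ± 0.586), Lpar2 (2.63 ± 0.151) and Lpar6 (1.19 ± 0.172). Lpar1 and Enpp2 overlapped over their libraries and could not be ordered, and Plpp1 and Lpar1 met at 9.28. In sgMef2d, Enpp2 stood at 3.02 ± 0.104 per kilobase (SD, n = 2), near Lpar2 at 3.15 ± 0.0638 and far below Lpar1 at 9.42 ± 0.160. The position of Enpp2 depends on the gene length used. Per kilobase of its longest transcript it stood at 16.0 ± 1.09 in sgControl and 5.64 ± 0.195 in sgMef2d.

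The receptor pool was dominated by Lpar1. Of the summed per-length level of the 4 listed receptors, Lpar1 held 67.0% in sgControl and 66.4% in sgMef2d. Lpar2 held between 19.1% and 21.3% in sgControl and between 21.9% and 22.5% in sgMef2d. The receptor sums were 13.0, 13.9 and 12.8 per kilobase in sgControl and 14.2 in each sgMef2d library.

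The phosphatase pool was mostly Plpp2, with 81.1% of the sum of Plpp1, Plpp2 and Plpp3 in sgControl and 79.9% in sgMef2d. The listed relatives Plpp5 and Plpp6, at means of 22.7 and 15.4 CPM in sgControl, were left out of this pool and of every phosphatase sum given here. With them the share of Plpp2 would be lower. The share of Plpp3 lay between 9.68% and 10.6% in sgControl and between 12.4% and 13.9% in sgMef2d, and that of Plpp1, which did not pass the test as a gene, between 8.12% and 9.25% and between 6.29% and 7.59%. The per-length ratio of Plpp3 to Plpp1 was 1.12, 1.19 and 1.24 in sgControl and 1.83 and 1.97 in sgMef2d. In both sgMef2d libraries Plpp3 lay above and Plpp1 below every control, so their ratio had to separate the groups. It adds nothing to the levels of these genes and was given no test. The sum of the phosphatases stayed close, at 110, 114 and 112 in sgControl and 113 and 118 in sgMef2d.

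Set against Enpp2, the summed phosphatase level was 11.9, 13.7 and 13.7 times that of Enpp2 in sgControl and 36.4 and 40.0 times in sgMef2d, per kilobase of merged exons. Per kilobase of the longest transcript these values were 6.45, 7.41 and 7.41 against 19.6 and 21.6. The phosphatase sum moved little, so this shift follows Enpp2, which was selected for its fall. RNA levels do not give the amount or activity of the proteins, and LPA was not measured.

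**Figure D3:**
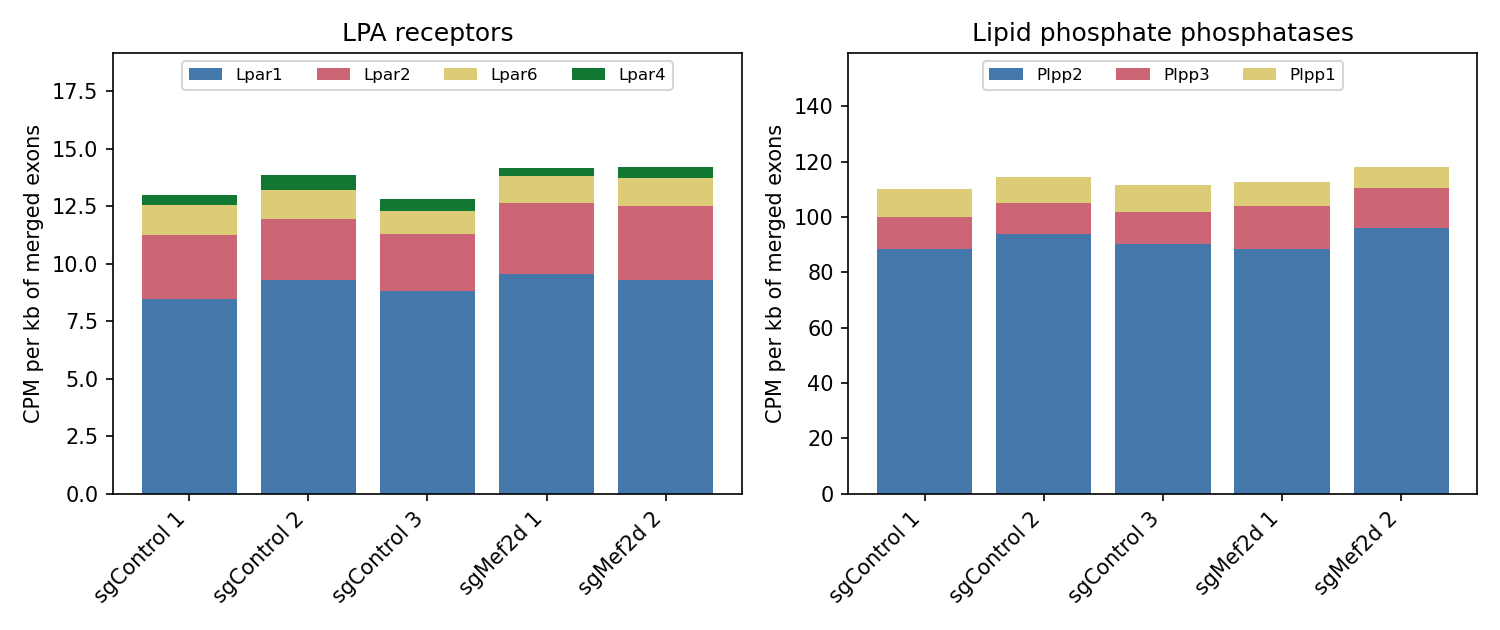
Summed level per kilobase of merged exons of the listed receptors and of the phosphatases Plpp1, Plpp2 and Plpp3, stacked by gene, in each of the 5 libraries. Lpar1 and Plpp2 make up most of their pools in every library, the receptor sums lie between 12.8 and 14.2 and the phosphatase sums between 110 and 118.

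The close relatives of the members were followed as families. Of the 6 LPA receptor genes 4 were listed, and 0 passed the test in either direction by edgeR, DESeq2 or limma-voom. Only Lpar2 had an unadjusted p under 0.05, at 0.0253 in the edgeR fit across all genes, which makes 1 of 4, beside 23.2% of all genes tested (2901 of 12483). Of 12 genes of the lipid phosphate phosphatase family 6 were tested and 1, Plpp3, rose, beside 3.67% of all genes. Plpp5, a phosphatase of broader lipid substrates, stood at 22.7 ± 0.969 CPM (SD, n = 3) in sgControl and 19.4 ± 0.424 CPM (SD, n = 2) in sgMef2d and did not pass (adjusted p = 0.141, edgeR). Of the 7 genes of the ENPP family 4 were listed, and for Enpp2 no test is given. The relatives Enpp1, a nucleotide pyrophosphatase of mineralization, Enpp4 and Enpp5 had log2 fold changes of -0.21, -0.09 and -0.28, and none of them passed. Enpp5 passed without sgControl replicate 1 (adjusted p = 0.00719).

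Over all pathway lists without the members, including 1 list whose genes are not reported here, 71 genes were tested and 8 passed (11.3%, beside 7.95% of all genes), 4 in each direction, with a median log2 fold change of 9.1e-04. The count moved with the libraries. It was 22 without sgControl replicate 1, where 29.4% of all genes tested passed. It was 4 without sgMef2d replicate 1 and 3 without sgMef2d replicate 2, where 1.88% and 1.83% of all genes passed.

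Among the phospholipases that make LPA or its precursors, 7 were tested, 1 rose and 1 fell, beside 3.67% and 4.28% of all genes. Pla1a, a secreted phospholipase A1 that acts on phosphatidylserine, stood at 2.10, 1.84 and 1.17 CPM in sgControl and at 3.83 and 5.05 CPM in sgMef2d. Its log2 fold change was 1.32 (SE 0.25, adjusted p = 0.00846 by edgeR), and the call was lost without sgMef2d replicate 2. Pla2g4a, the cytosolic phospholipase A2 that releases arachidonic acid, stood at 171, 154 and 152 CPM in sgControl and at 133 and 122 CPM in sgMef2d. It fell by 0.33 on the log2 scale (SE 0.071, adjusted p = 0.0175), and the call was lost when either sgMef2d library was left out. Inside the cell, LPA is an intermediate of glycerolipid synthesis, and of the 15 genes of this route that were tested 0 passed by edgeR, DESeq2 or limma-voom, with 2 at an unadjusted p under 0.05 (23.2% of all genes). The smallest p among them belonged to Lpcat3, an acyltransferase of lysophospholipids, at 70.7 ± 4.16 CPM in sgControl (SD, n = 3) and 81.6 ± 1.15 CPM in sgMef2d (SD, n = 2, adjusted p = 0.0963). Without sgControl replicate 1, Lpcat3 passed (adjusted p = 1.86e-04), and so did Agpat2 (3.30e-04) and Lpcat4 (0.00169), acyltransferases that use LPA and other lysophospholipids, all 3 higher. These 3 of 15 genes stand beside 29.4% of all genes called in that fit.

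Sphingosine 1-phosphate (S1P) is the sister lipid of LPA, and Plpp enzymes act on it too. Of 8 genes of its metabolism and receptors 1 rose, beside 3.67% of all genes. Spns2, the transporter that exports S1P from cells, stood at 45.1, 45.8 and 46.8 CPM in sgControl and at 66.0 and 67.3 CPM in sgMef2d. The groups were each tight and far apart. Spns2 rose by 0.54 on the log2 scale (SE 0.064, adjusted p = 5.63e-04 by edgeR), and the call held under every alternative run, with adjusted p at most 0.0218.

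Of 14 tested genes that LPA is known to induce, 1 rose and 1 fell, beside 3.67% and 4.28% of all genes. Ccn2, a matricellular protein and target of YAP and of serum response factor, stood at 173, 179 and 164 CPM in sgControl and at 133 and 124 CPM in sgMef2d. It fell by 0.42 on the log2 scale (SE 0.064, adjusted p = 0.00245 by edgeR), a call lost without sgMef2d replicate 2. Fosl1, an AP-1 subunit induced through ERK, went the other way, from 60.8, 64.1 and 61.1 CPM to 83.7 and 85.7 CPM. Its log2 fold change of 0.45 (SE 0.062, adjusted p = 0.00125) passed under every alternative run, with adjusted p at most 0.0458. The median log2 fold change of the list was 0.03. Without sgControl replicate 1 the list held 6 calls (4 higher and 2 lower) in a fit that called 29.4% of all genes, with Cxcl1, Fos and Ptgs2 added above and Ccn1 below. Cxcl1, a chemokine (log2 fold change 0.58, adjusted p = 0.0744 with all libraries), also passed under the replicate block, and Fos also without sgMef2d replicate 2.

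**Figure D4:**
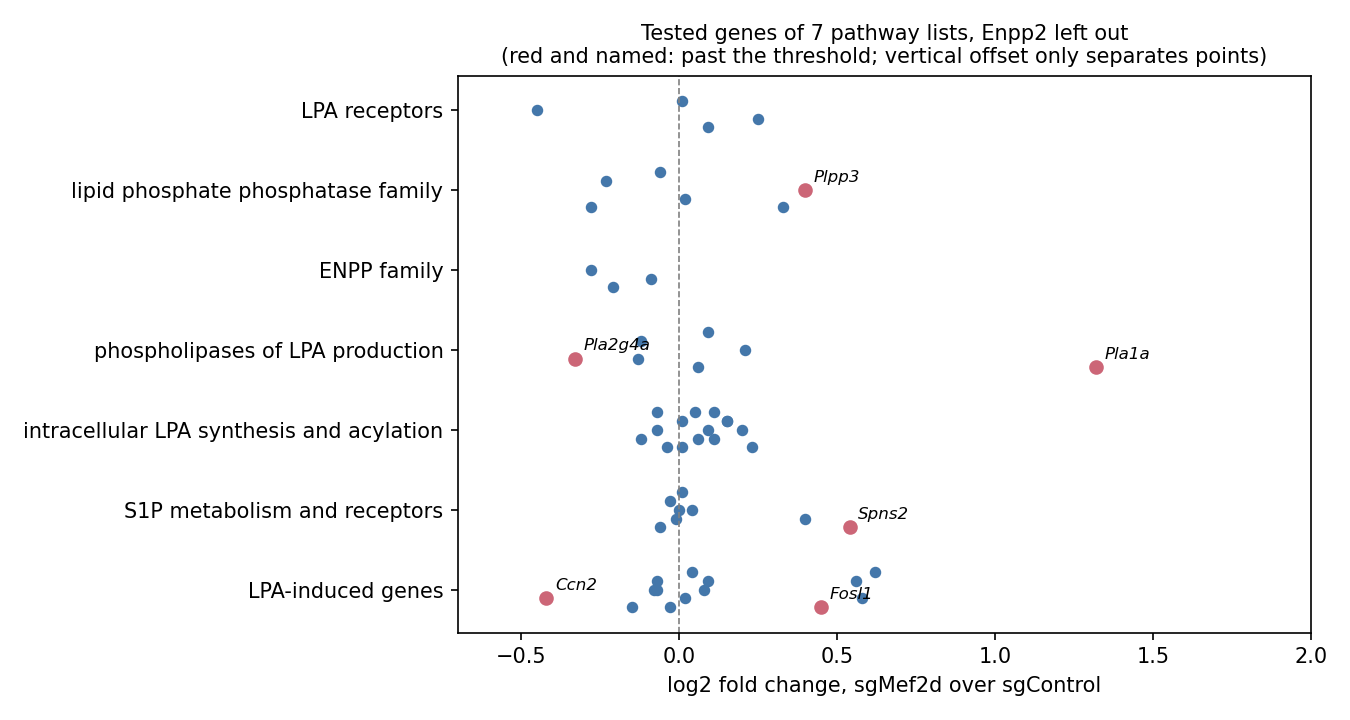
Log2 fold change of each tested gene in 7 pathway lists, 1 row per list, with red, named points for genes past the adjusted p threshold of 0.05, blue points for the rest, and Enpp2 left out. The called genes fall on both sides of 0, from -0.42 for Ccn2 to 1.32 for Pla1a.

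The genes whose levels followed Enpp2 most closely over the 5 libraries were ranked by the distance between log2 CPM profiles, each centred on its own sgControl mean, among the 8044 genes whose average log2 CPM reached 4. The nearest was Gas6, a vitamin K-dependent ligand of TAM receptors, at 141, 135 and 142 CPM in sgControl and 63.6 and 69.6 CPM in sgMef2d (distance 0.637). Lbp, the lipopolysaccharide binding protein, followed at a distance of 0.664, from 30.3, 31.9 and 32.3 CPM to 15.9 and 14.4 CPM. Lpl was next at 0.683, with 25.8, 30.7 and 32.1 CPM and then 9.83 and 6.80 CPM. Like Enpp2, these 3 encode secreted proteins. Ccn5, a secreted matricellular protein, stood at a distance of 0.739 and Prex2, a Rac exchange factor, at 0.779, with log2 fold changes of -0.99 and -1.01. The measure depends on the fall itself and rests on 5 libraries in 2 groups. The 5 genes with the highest Pearson correlation instead shared 0 genes with these.

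**Figure D5:**
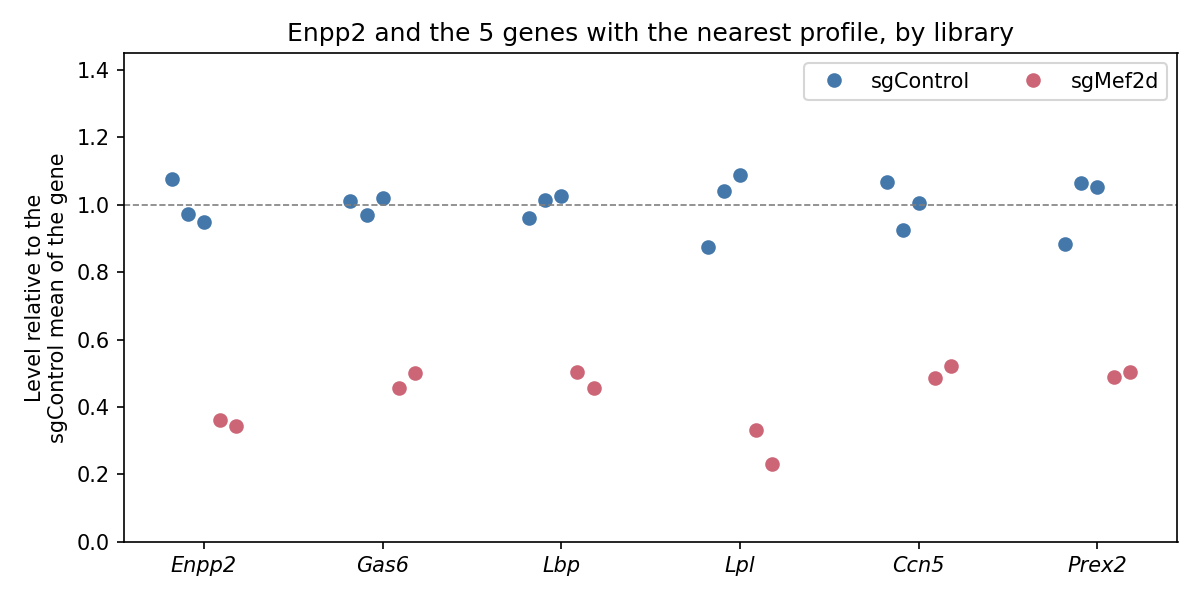
Level of Enpp2 and of the 5 genes with the nearest profile in each library, divided by the sgControl mean of the same gene (linear axis from 0, points are libraries). All 6 genes lie near 1 in the sgControl libraries and lower in both sgMef2d libraries, and Lpl is the only one whose sgMef2d points reach below those of Enpp2.

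Of 17 annotated genes within 500 kb of Enpp2, 4 were tested and 1 passed, and that 1 rose. Mal2, a proteolipid of apical transport in epithelia 236 kb away, had a log2 fold change of 0.36 (SE 0.067, adjusted p = 0.00667 by edgeR), while the remaining 3 (Deptor, Dscc1 and Taf2, named because they complete the count) had -0.28, 0.05 and -0.07 and did not pass. Around the 7 listed members, 69 neighbours were tested and 4 passed (5.80%, beside 7.95% of all genes), Mal2 and, near Plpp2, Hcn2, an ion channel (1.03), Shc2, an adaptor protein (-1.36), and Cnn2, an actin-binding calponin (-0.27), values being log2 fold changes. The neighbours of Lpar1, Lpar2, Lpar6, Plpp1 and Plpp3 included 0 of 44 that passed by edgeR or limma-voom and 1 by DESeq2, with 8 at an unadjusted p under 0.05 in edgeR (23.2% of all genes). Around the unlisted Lpar3, 2 of 11 tested genes passed as lower, beside 4.28% of all genes. They were Ddah1, an enzyme that degrades methylated arginine (-0.45, adjusted p = 8.42e-04 by edgeR), and Ctbs, a lysosomal chitobiase (-0.56, adjusted p = 0.0370). Of these called neighbours Ddah1 kept its call under every alternative run, and the others lost it when either sgMef2d library was left out, with Cnn2, Shc2 and Ctbs losing it under further settings. Identical sequence elsewhere was counted apart from the overlaps with genes on the other strand, which cover 25.8% of the exon bases of Plpp1, 7.56% of Lpar6 and 5.97% of Enpp2. Of all 50-base words in their exons, 0% for Enpp2, Lpar1, Plpp1, Plpp2 and Plpp3, 0.0862% for Lpar2 and 0.710% for Lpar6 also occurred elsewhere in the transcripts.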

How the data were processed

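RNA-seq of 5 EpH4 libraries, 3 sgControl and 2 sgMef2d, was examined. The authors selected poly(A) RNA, prepared libraries with a kit that marks strand, aligned reads with STAR to GRCm38 and deposited a table of unnormalized read counts for each gene. CASAVA and Subread are also named in the submitters' processing notes. Without their version suffix, 12934 of 12934 deposited identifiers matched GENCODE M21, and 12811 had the same version too. The methods name a GENCODE release by another number. The lowest maximum count of a listed gene was 11, so weakly expressed genes had been removed before deposit, and 0 columns were left unused.

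Counts were scaled by TMM and tested with edgeR 4.0.16 in R 4.3.3 (quasi-likelihood test, bias-adjusted form, filterByExpr by group, Benjamini-Hochberg over 12483 genes, threshold 0.05, common dispersion 0.00369). The script was tested on simulated data. Members and lists were chosen with earlier results of these data known, so no p was adjusted over a list alone and no list was tested as a set. The genes of 1 list are not reported here. Library totals from 13601145 to 20498563 limit genes near 3 counts, and intervals cover the error between libraries as fitted. PCR copies were not identified. CPM is counts per 1000000 of the TMM-scaled library, and lengths come from GENCODE M21. Named were the 8 members, Mef2d, up to 4 called genes per list or else the gene of smallest p, the 5 genes nearest to Enpp2, and up to 3 called neighbours within 500 kb per member. Genes of a count of 5 or fewer outside this rule, among them Lpar4, Plpp5, Enpp1, Enpp4 and the uncalled neighbours, were named after their values were seen. Alternatives were other scalings and filters, DESeq2 1.42.0, limma-voom 3.58.1, a replicate block and each library left out.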

Additional observations from a re-analysis of the deposited data

How the results depend on the processing

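The log2 fold change of Enpp2, given as a description, lay between -1.55 and -1.44. Under other scalings, filters, the legacy test, DESeq2 and limma-voom, no member and not Mef2d changed its side of the threshold or its direction, and the count of genes called, 992 as reported, ran from 804 with DESeq2 to 993 without a filter. Leaving out 1 library mattered more. The count ran from 234 to 3639, and that of the pathway lists from 3 to 22. All genes called numbered 3639 without sgControl replicate 1, 603 without sgControl replicate 2, 238 without sgMef2d replicate 1 and 234 without sgMef2d replicate 2. Leaving out an sgMef2d library leaves 1 sample in that arm, assumed to vary like the controls. Over the left-out libraries the log2 fold change ran from 0.06 to 0.12 for Lpar1, 0.21 to 0.30 for Lpar2, -0.09 to 0.09 for Lpar6, -0.39 to -0.19 for Plpp1 (the lower without sgMef2d replicate 1, the higher without sgMef2d replicate 2), -0.04 to 0.07 for Plpp2, 0.35 to 0.44 for Plpp3 and -0.19 to -0.06 for Mef2d. The cause of these shifts was not tested.

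The labels number the replicates, but same-numbered libraries did not deviate together (correlations of 0.0113 and -0.000916), so the numbers are not taken as pairs. With the replicate number as a block, in which sgControl replicate 3 stands alone and adds nothing to the contrast, 1254 genes passed, 901 of them among the 992, and Lpar6 turned to -0.09. Lengths of the longest transcript in place of merged exons put the share of Lpar1 among the receptors at 71.0% in sgControl and 70.5% in sgMef2d, and ranking by Pearson correlation shared 0 of the 5 genes nearest to Enpp2. Low levels limit Lpar6, Lpar4 and Pla1a, and likewise the markers Fabp4, Pparg, Dcn and Col3a1. Among the called neighbours they limit Shc2, Hcn2 and Ctbs, with an average log2 CPM of 1.22, 1.36 and 2.77.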
